A study of Mus musculus with 7 samples.

Results

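H3K27ac was measured by ChIP-seq in mouse embryonic stem (ES) cells before and after the neurogenic transcription factor NeuroD1 was switched on, and 913 peaks away from promoters gained the mark by 12 h and held it at 48 h. They were chosen from 66841 peaks by their measured values. A peak was taken when it lay outside 2 kb either side of every protein-coding transcription start site (TSS), had a mean of at least 20 reads per library, had a lowest value in the 12 h and 48 h libraries at least 1.3 times the higher 0 h value, and had a 48 h mean between 0.8 and 1.25 times the 12 h mean. The 913 peaks were 1.37% of all peaks and 3.22% of the 28356 distal peaks with at least 20 reads on average. Because the rule read all 6 libraries, the rise and its persistence are described and not tested.

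The cells were A2Lox ES cells, named A2lox-NeuroD1 in the study's methods for the inducible NeuroD1 transgene they carry, so that all groups shared the line and NeuroD1 was ectopic. They were grown in serum and LIF, first on inactivated fibroblast feeders and then on gelatin without them. The 0 h cells received no doxycycline, and the 12 h and 48 h cells received doxycycline at 500 ng/ml to induce NeuroD1, with libraries R1 and R2 at each time point. Nothing in the sources states that R1 and R2 came from separate cultures, so p-values measure the spread between these samples only. An input library was not used here, and peak counts of the 6 libraries summed to between 6283103 and 8112895 reads.

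The 48 h libraries differed more from each other than those of the other time points, with a chi-square per degree of freedom of 5.54 against 1.79 at 0 h and 1.42 at 12 h. All 10 ES cell marker genes had a promoter peak, and their summed scaled counts were 25448 and 25767 at 0 h, then 28046 and 28258 at 12 h, then 17765 and 21986 at 48 h. Promoter peaks were found for 2 of 10 feeder fibroblast markers, summing to between 13.9 and 40.3 in each library, for 2 of 8 mesendoderm markers, summing to between 31.0 and 55.2, and for 2 of 5 trophoblast markers, summing to between 50.7 and 96.6. These are bulk samples, so fewer cells carrying the mark and less of the mark per cell cannot be told apart.

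H3K27ac is acetylation of lysine 27 of histone H3 and is found at active enhancers and promoters. Enhancers are regulatory stretches that can lie far from the gene they act on, within introns or between genes. NeuroD1 is a basic helix-loop-helix protein that binds E-boxes, short palindrome-like motifs written as CANNTG, together with an E protein partner, and CAGATG and CAGCTG are the E-boxes known for this family.

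The windows of 3 peaks described individually below, each with at least 2 such E-boxes in the 250 bases at its centre, are printed to show how the sites lie. The sequence is that of the plus strand of mm10, from RefSeq, with CAGATG, its reverse complement CATCTG and CAGCTG in capitals. The Rfng window is chr11:120777081-120777330 in an intergenic peak, the Aco1 window is chr4:40108637-40108886 in an intergenic peak and the Sema3e window is chr5:14039415-14039664 in an intron of the gene.
Rfng: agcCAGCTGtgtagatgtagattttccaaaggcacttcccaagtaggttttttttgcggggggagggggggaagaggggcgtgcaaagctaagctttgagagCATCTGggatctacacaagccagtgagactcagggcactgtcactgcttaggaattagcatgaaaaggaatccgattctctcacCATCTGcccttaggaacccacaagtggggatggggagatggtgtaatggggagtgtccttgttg
Aco1: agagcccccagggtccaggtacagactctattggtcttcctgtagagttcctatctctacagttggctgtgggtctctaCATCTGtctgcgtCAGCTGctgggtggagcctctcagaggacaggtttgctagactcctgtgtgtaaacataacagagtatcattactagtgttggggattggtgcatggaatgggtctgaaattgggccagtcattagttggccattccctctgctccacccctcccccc
Sema3e: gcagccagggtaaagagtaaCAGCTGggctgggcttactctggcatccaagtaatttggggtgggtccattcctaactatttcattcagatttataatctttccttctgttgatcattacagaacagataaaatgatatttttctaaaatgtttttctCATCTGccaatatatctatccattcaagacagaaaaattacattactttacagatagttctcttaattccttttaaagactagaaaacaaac
The first window held 3 matches and the others 2 each, and in the Aco1 window a CAGATG match stood close to a CAGCTG match.

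All counts below were scaled to the same library total. The median count of the 913 peaks was 31.8 and 27.6 in the 0 h libraries, 77.2 and 77.3 at 12 h, and 72.2 and 83.4 at 48 h. Before induction they therefore lay under the median of all distal peaks, which was 50.3 and 48.8, and afterwards above it, when it was 54.7 and 52.4 by 12 h, then 44.4 and 49.4 by 48 h. The fold over 0 h had a median of 2.47 at 12 h and 2.44 at 48 h, and in 148 peaks it was at least 4 at both times. The 48 h mean was 0.991 of the 12 h mean at the median. In 689 peaks the 12 h and 48 h libraries overlapped, in 121 both 48 h libraries were above both 12 h libraries and in 103 both were below. The rule bounded the ratio of the 48 h to the 12 h mean. No counts over all distal peaks stand beside these, so nothing is read from them.

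**Figure D1:**
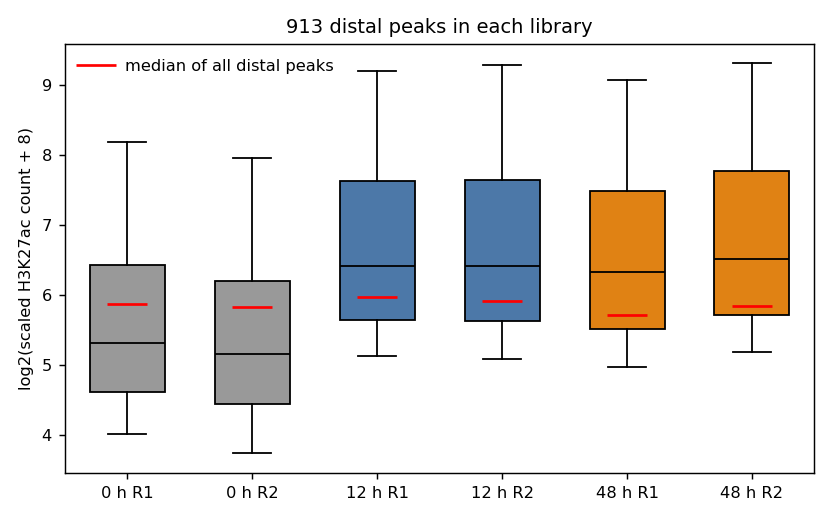
Scaled H3K27ac counts of the 913 distal peaks in each library, as log2 of the count plus 8. Boxes span the quartiles with the median as a line, whiskers reach the 5th and 95th percentiles and the red bars mark the median of all distal peaks with at least 20 reads on average. The median of the 913 peaks lies under the red bar in both 0 h libraries and above it in the 4 later libraries, while every box spans the bar.

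Read against the fit over all peaks, edgeR called 772 of the 913 gained at 12 h (84.6%, where 9.93% of all peaks were called gained) and 779 gained at 48 h (85.3%, against 8.56%). The rule used the same contrasts, so nothing is read from these shares. The 99 peaks called at neither time had a median of 30.0 reads per library, and the 737 called at both had 82.5. Between 12 h and 48 h, edgeR called 0 of the 913 changed, with 1 at an unadjusted p under 0.05, and DESeq2 called 0 with 0 unadjusted, where 19.1% of all peaks were called changed by edgeR. The rule also bounded this ratio. Some were called changed without the 48 h R1 library or without R2. No share over all peaks is given for those fits, so nothing is read from them.

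Of 6471 distal peaks with the same gain at 12 h, 4426 (68.4%) fell under 0.8 of their 12 h mean by 48 h, 744 (11.5%) rose above 1.25 of it and 913 (14.1%) form the set described here. A further 388 had a ratio inside the window but a 48 h library under the 1.3-fold limit. The lower 48 h values were mostly in R1: its count was under that of R2 in 682 of the 913 peaks, and the median R1 to R2 ratio was 0.842, beside 0.854 over all distal peaks. Leaving out the 48 h R1 library raised the number of peaks meeting the rule to 1912, of which 702 were among the 913, and leaving out 48 h R2 gave 744, of which 575 were.

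A reading that the choice did not use was had by choosing peaks on the R1 libraries alone and reading them in R2. Of 1084 peaks that met the rule in R1, 820 (75.6%) were at least 1.3-fold over 0 h at both later times in R2, where 24.0% of all distal peaks were. In the other direction 1089 of 3268 (33.3%) held, against 11.7% of all distal peaks. On the log2 scale with a pseudocount of 8, the peaks chosen in R1 had median changes in R2 of 0.84 at 12 h and 1.01 at 48 h, beside 0.07 and 0.00 over all distal peaks. Those chosen in R2 had medians in R1 of 0.54 at 12 h and 0.13 at 48 h, beside 0.08 and -0.26, so that the 48 h change was smaller in that direction. The share that also kept the 48 h to 12 h ratio within the window was 40.5% in R2, beside 10.7% of all distal peaks, and 14.8% in R1, beside 4.25%.

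The limit of the rule ran through a continuous range of values. Just inside lay a peak near Azin1 with 14.4 and 17.0 at 0 h, then 25.7 and 22.1 at 12 h, then 33.3 and 24.9 at 48 h, a peak near Pon2 with 269 and 194 at 0 h against 349.5 to 405 later, and a peak near Rgma with 46.2 and 38.2 at 0 h against 60.0 to 76.6 later. Just outside lay peaks near Nuak2, with 20.5 and 15.9 at 0 h and 26.7 to 47.7 later, near Cnbd1, with 41.0 and 38.2 and then 53.4 to 62.2, and near Haao, with 35.9 and 44.6 and then 57.9 to 97.5. In all, 140 of the 913 had a ratio under 1.4, and 206 further distal peaks lay between 1.2 and 1.3.

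The 10 peaks with the largest gains were ranked by the lowest later value over the higher 0 h value, or over 3 reads where both 0 h libraries held at most 3. Over all 913 the highest fold of the means was 17.9 at each time, in a peak that this ranking did not place among the 10. A peak at chr17:4184002-4185468, 488474 bp from the start of Nox3, which encodes an NADPH oxidase of the inner ear, had 6.16 and 6.37 at 0 h, then 114 and 85.6 at 12 h, then 85.5 and 111 at 48 h, 15.9-fold and 15.7-fold over 0 h. A second peak beside it at chr17:4181465-4183422 had 10.3 and 8.49, then 91.1 and 111, then 91.0 and 107. At both sites all 4 later libraries lay far above the 0 h pair and the 12 h and 48 h values overlapped.

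A wide peak at chr3:145461773-145465974 in an intron of Col24a1, a fibrillar collagen gene, had 30.8 and 18 at 0 h, where the medians of the 913 were 31.8 and 27.6, then 313 and 385 at 12 h, then 328 and 405 at 48 h. An intronic peak of Gsg1l, whose product is an auxiliary subunit of AMPA receptors, had 3.08 and 5.31, then 62.2 and 54.3, then 52.2 and 60.2. An intronic peak of Ccser1 had 23.6 and 23.4, then 263 and 310.0, then 219 and 327. These 3 peaks lay between 112332 and 850592 bp from the nearest TSS.

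For 3 of the 10 peaks with the largest gains each 0 h library held at most 3 reads, and the ratio of their summed reads, corrected for library totals, is given with an exact 95% interval that covers counting error only. The peak near Clnk, which encodes an adaptor of immune receptor signalling, had 3.08 and 3.18 at 0 h and 40.7, 47.8, 30.0 and 49.0 later, a ratio of 14.2 (6.29 to 39.8) for 12 h and 13 (5.73 to 36.4) for 48 h. The peak near Rgs16, a regulator of G protein signalling, had 2.05 and 2.12 without doxycycline, then 34.3 and 29.4, then 23.3 and 28.4, with ratios of 15.2 (5.65 to 57.4) and 12.5 (4.62 to 47.7). For the peak near Samd5, of which 55.4% was repeat sequence, the ratios were 12.9 (5.27 to 41.0) and 10.6 (4.28 to 33.9). The intervals are wide because so few reads were counted before induction. The peak near Aco1, an iron-responsive aconitase gene whose window is printed above, had 4.10 and 4.25, then 37.5 and 30.4, then 38.9 and 35.3. It was 71.3% repeat sequence and held 4 reads in each 0 h library. The remaining peak of this group lay near Cdh10.

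The peaks with the highest counts were wide and already acetylated at 0 h. The highest, near F2rl1, the gene of protease-activated receptor 2, had 1070.3 and 1088 at 0 h, then 1695 and 1716 at 12 h, then 1609.9 and 1748 at 48 h, only 1.58-fold and 1.56-fold over 0 h. The widest of them, in an intron of Itpr1, which encodes the IP3-gated calcium channel of the endoplasmic reticulum, spanned 11428 bp and had 440.2 and 333 at 0 h, then 1442 and 1406 at 12 h, then 1207 and 1855 at 48 h. A peak in an intron of Plekha1 had 747 and 566, then 1629 and 1718, then 1583 and 2250.3. The others of the 10 lay at Pias2, Adk, Sulf1, Fmnl2, Spns3, Enc1 and Bcar3, with folds between 1.56 and 2.38.

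**Figure D2:**
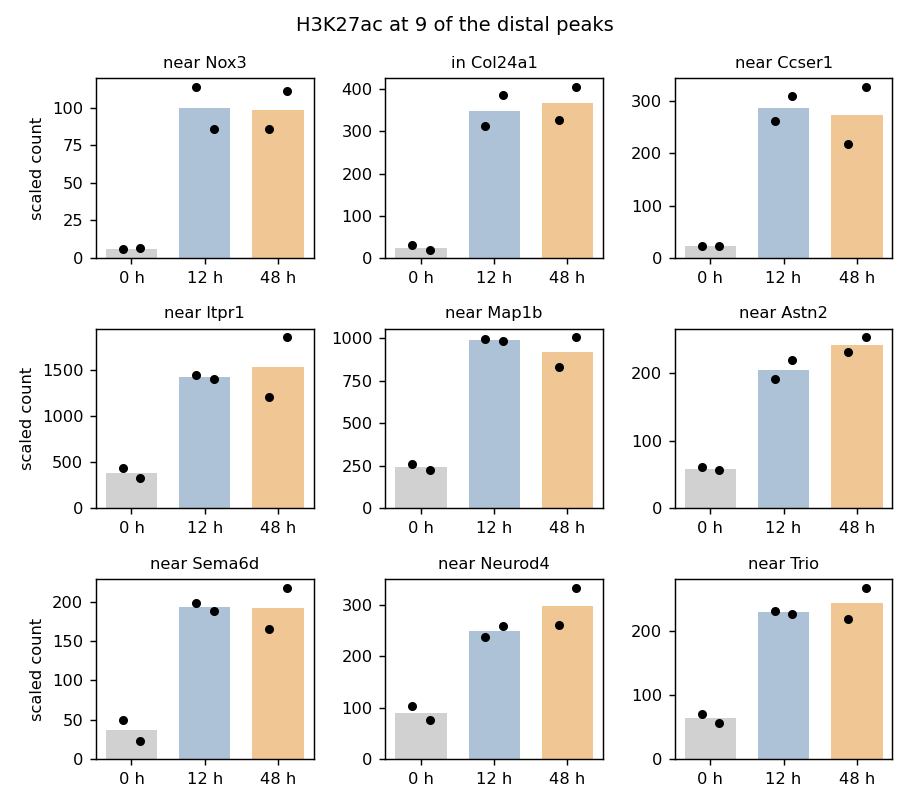
Scaled H3K27ac counts of 9 of the distal peaks at 0 h, 12 h and 48 h. Bars are means and points are the R1 (left) and R2 (right) libraries, on linear axes from 0 that differ between panels. In every panel the 4 later libraries lie above both 0 h libraries, with the Nox3 peak starting at 6.16 and 6.37 and the Itpr1 peak at 440.2 and 333.

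The 913 peaks were spread over the genome, with 0 on the Y chromosome, 14 on the X and between 19 and 86 on each autosome. In introns lay 439 (48.1%), beside 42.0% of all distal peaks, 31.8% of the distal peaks that gained by 12 h and then fell and 54.7% of those that gained and then rose. For 344 of the intronic peaks the host was also the nearest gene. The median distance to the nearest TSS was 39660 bp, beside 27955 bp over all distal peaks, and 233 peaks (25.5%) lay over 100 kb away. Starts of long noncoding RNAs overlapped 45 peaks (4.93%), beside 6.2% of all distal peaks.

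Their width had a median of 1223 bp, beside 972 bp over all distal peaks and 1184.5 bp in the peaks that fell. Repeats covered over 50% of the sequence of 69 peaks (7.56%), beside 25.3% of all distal peaks, 20.9% of those that fell and 2.15% of those that rose. G and C made up 45.3% at the median, beside 48.8% of all distal peaks, 43.6% in those that fell and 46.1% in those that rose. Base composition moved with the measurement: over all peaks, G+C content and the log2 change at 12 h had Pearson's r of -0.49, given as a description over peaks of the same libraries. When counts were corrected for G+C content, 611 of the 913 (66.9%) still met the rule. Those kept had a median of 46.9% G+C and those not kept 42.8%.

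Some of the peaks came in runs. Of the 913, 286 (31.3%) had another within 10 kb, and chaining peaks up to 50 kb apart left 695 separate sites. No such count is given for all distal peaks, so whether this share is unusual cannot be told. The longest chain held 7 peaks over 84048 bp of chromosome 10 around 1700020N01Rik and Sgk1, and 5 peaks stood within 22380 bp in an intron of Fmnl2. Next to the 913, within 10 kb, lay 893 other distal peaks that did not meet the rule. Of these, edgeR called 379 gained at 12 h (42.4%, where 16.8% of distal peaks were) and 356 gained at 48 h (39.9%, against 11.6%). Among distal peaks further away the shares were 13.6% and 8.1%. Whether such neighbours belong to the same acetylated stretch was not tested.

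E-boxes with the letters CAGATG, searched on both strands within 250 bp of the peak centre, were present in 417 of the 913 peaks (45.7%). The share was 30.5% of all distal peaks, 34.0% of the peaks that gained and then fell and 49.2% of those that gained and then rose. At least 2 matches were found in 112 peaks (12.3%), beside 5.98% of all distal peaks. CAGCTG was present in 270 peaks (29.6%), beside 24.9%, 20.7% and 34.8% in the same classes. With either motif counted, 561 peaks (61.4%) had a match, beside 47.0%, 46.4% and 67.2% in the same classes, and 352 had none. No test was run on these shares. A match is a run of letters and not a bound site.

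The distal peaks were also split into 3 equal classes by G+C content. Of the 913 peaks, 503 lay in the class with least G+C, 342 in the middle class and only 68 in the class with most. In the class with least G+C the CAGATG share was 40.2% of the 913 peaks against 32.1% of distal peaks, in the middle class 52.6% against 34.8%, and in the class with most 51.5% against 24.7%. Within the same classes the peaks that fell had 31.9%, 39.0% and 39.2%. The matches were not gathered at the peak centre: in bins of 50 bp out to 500 bp on either side, the 913 peaks held between 5.04 and 7.78 CAGATG sites per 100 peaks in each bin, and all distal peaks between 3.6 and 4.65. Across 4 equal groups of the 913 by the size of the gain, the CAGATG share was 41.7%, 46.5%, 42.5% and 52.0% from the smallest to the largest gains, and the CAGCTG share was 26.3%, 37.7%, 30.7% and 23.6%. In the group with the largest gains the CAGCTG share was thus under the 24.9% of all distal peaks.

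**Figure D3:**
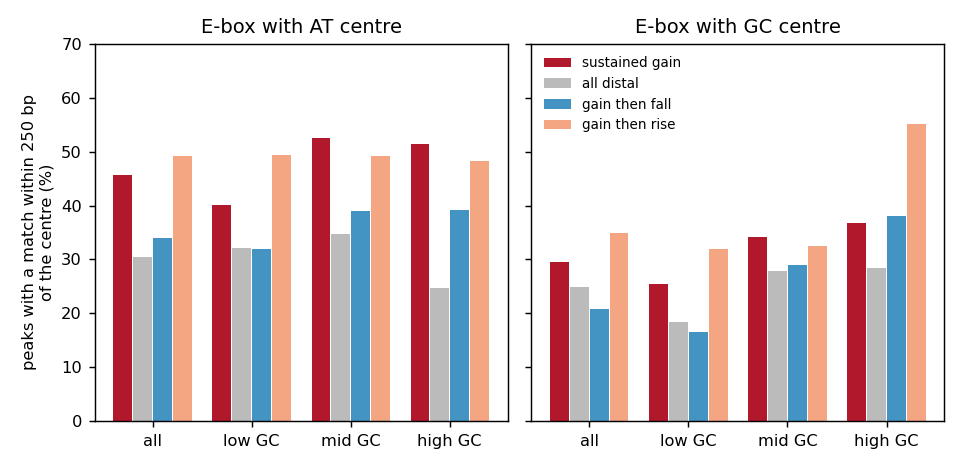
Share of peaks with a CAGATG match (left, E-box with AT centre) or a CAGCTG match (right, E-box with GC centre) within 250 bp of the peak centre, in %, for each whole class of peaks and within 3 equal G+C classes of the distal peaks. Red bars are the 913 peaks, grey all distal peaks, blue the peaks that gained by 12 h and then fell and pale orange those that gained and then rose. Red stands at 45.7% against 30.5% in grey for CAGATG, and above grey in all 3 G+C classes for CAGATG.

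The other E-boxes did not share one pattern. CACCTG, the site of zinc-finger repressors such as Zeb2 and also of E proteins, was in 33.2% of the 913 peaks and in 39.1% of all distal peaks. CAAATG was in 34.8% against 23.3%, CACATG in 30.9% against 26.5%, CAAGTG in 27.9% against 23.1% and CAACTG in 24.1% against 19%. CATATG (9.1% against 6.8%), CAATTG (5.5% against 5.9%) and CACGTG (4.5% against 7.2%) were rarer. In the peaks that gained and then fell CAAATG was in 32.9%, CACATG in 33.4% and CACCTG in 33.3%. By G+C class (low to high) CACCTG was in 27.04%, 39.2% and 48.5% of the 913 against 29.2%, 36.9% and 51.1% of distal peaks. CAAATG was in 36.2%, 33.9% and 29.4% against 33.4%, 25.9% and 10.5%. CACATG was in 29.2%, 32.2% and 36.8% against 33.8%, 31.2% and 14.5%, lower only in the class with least G+C. CAAGTG was in 26.6%, 29.2% and 30.9% against 26.1%, 28.5% and 14.7%. CAACTG was in 25.6%, 22.2% and 22.1% against 22.2%, 23.1% and 11.6%.

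Motifs of other factor families were searched in the same windows. The octamer ATGCAAAT was in 4.3% of the 913 against 2.6% of distal peaks, the Sox motif CATTGT in 28.4% against 19%, and the Gata motif AGATAA in 25.8% against 19.7%. The homeodomain motif TAATTA was in 15.1% against 9.5%, and the AP-1 motif TGANTCA in 14.7% against 14.5%. The Tead motif GGAATG (26.4% against 22.6%) and the nuclear receptor motif AAGGTCA (10.5% against 9.2%) lay close to the background. In the peaks that gained and then fell the octamer was in 3.7%, the Sox motif in 26.5%, the Gata motif in 28.8% and the homeodomain motif in 16.5%. Within the classes of low, middle and high G+C the Gata motif was in 32.4%, 19.9% and 7.35% of the 913 against 30.7%, 19.5% and 8.81% of distal peaks, and the homeodomain motif in 20.5%, 9.65% and 2.94% against 17.9%, 8.02% and 2.48%. The Sox motif was in 30.8%, 26.0% and 22.1% against 26.9%, 21.3% and 8.91%. The G+C-rich Klf motif CCACCC (32.9% against 40.2%) and the Ets motif CCGGAAG (2.3% against 10.2%) were less frequent, and CCCNNGGG, the core of the Ebf palindrome, was in 13.6% against 18.1%. By G+C class the Klf motif was in 21.9%, 43.6% and 60.3% against 29.0%, 43.9% and 47.6%. The Klf share was above that of distal peaks only in the class with most G+C, which held 68 of the 913. The Ets motif was in 1.59%, 3.51% and 1.47% against 2.4%, 5.13% and 23.0%. CCCNNGGG was in 7.95%, 19.3% and 26.5% against 8.29%, 15.5% and 30.5%, and the octamer in 4.57%, 4.68% and 0% against 3.88%, 2.85% and 1.04%.

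The nearest protein-coding TSS assigned the 913 peaks to 669 genes, of which 498 had 1 peak, 171 had 2 or more and 51 had 3 or more. Of these genes 323 (48.3%) were also nearest to a distal peak that gained and then fell, and 147 (22%) to one that gained and then rose. Over all 9429 genes nearest to a distal peak the shares were 25.4% and 5.80%. A gene with more distal peaks can more easily have peaks of several classes. The shares were not matched for the number of distal peaks per gene, so nothing is read from their difference. The nearest gene is a position, and which gene a peak acts on was not measured.

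Promoter peaks did not enter the rule and were read as a separate measure. A promoter peak was found for 537 of the 669 genes. At 12 h edgeR called 38 of them gained (7.08%, where 1.77% of the promoter peaks of all genes were) and 55 lost (10.2%, against 22.1%). At 48 h it called 102 gained (19%, against 4.07%) and 5 lost (0.931%, against 2.83%). The comparisons share the 0 h libraries. Genes nearest to a distal peak but to none of the 913 were at 2.13% gained and 21.7% lost at 12 h, and at 4.36% gained and 4.12% lost at 48 h. Genes of distal peaks that gained and then rose were at 5.64% gained and 15.8% lost at 12 h. At 48 h they were at 23.3% gained and 0.903% lost, so the gain at 48 h was not particular to the 913. Genes of peaks that gained and then fell, with none of the 913, were at 4.59% gained and 14.8% lost at 12 h. At 48 h these were at 6.18% and 3.27%. The shares are descriptions over lists of genes, with no test of their difference.

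On the log2 scale the promoter peaks of the 537 genes had a median change of -0.21 at 12 h and 0.24 at 48 h, while the promoter peaks of all genes had -0.41 and 0.06. With the G+C correction the medians of all genes moved to -0.22 and 0.13 and those of the 537 to -0.03 and 0.33. Without the 48 h R1 library 98 promoter peaks of nearest genes were called gained at 48 h (18.2%, beside 5.10% of all genes), and without 48 h R2 237 were (44.1%, beside 18.9%). Without 0 h R1 the count was 58 (10.8%, beside 1.86%) and without 0 h R2 28 (5.21%, beside 0.982%). At 12 h, leaving out a 0 h or 12 h library left between 9 and 20 promoters called gained and between 2 and 13 called lost, while leaving out either 48 h library gave 66 gained and 178 lost. The share lost without 0 h R2 was 0.372%, beside 0.373% of all genes, so that the contrast in losses was not seen there, and without 48 h R1 it was 33.1%, beside 51.0%.

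The calls were next read by distance, with no test of a difference between the classes. Where the closest of the peaks was within 20 kb, 25 of 205 promoters (12.2%) were called gained at 12 h and 13 lost. At 20 to 100 kb, 12 of 223 (5.38%) were called gained and 20 lost, and over 100 kb 1 of 109 (0.917%) was gained and 22 (20.2%) lost, near the 1.77% and 22.1% of all genes. At 48 h the shares called gained were 20%, 18.4% and 18.3% at the same distances. With 2 or more of the 913 peaks, 28.7% of 143 promoters were called gained at 48 h, and with 3 or more 34.0% of 47.

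The gains at promoters were mostly called at 48 h alone. Of the 537, 26 were called gained at both times, 75 at 48 h with no call at 12 h, and 12 at 12 h with no call at 48 h. Over the 13132 promoter peaks of all genes more were also called gained at 48 h (535) than at 12 h (233). The same split by time is not given for all genes. A call at 1 time only does not show that the times differ. In the direct comparison of 48 h with 12 h, 203 promoters were higher (37.8%), a share near the 34.5% of all genes' promoter peaks, and 11 were lower (2.05%, against 2.38%).

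**Figure D4:**
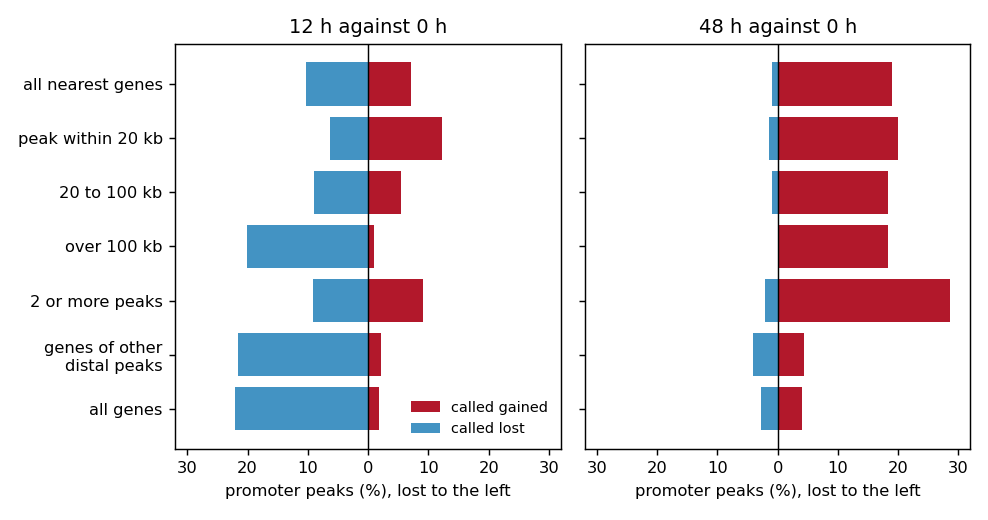
Share of promoter peaks called gained (red, to the right) or lost (blue, to the left) by edgeR at 12 h and at 48 h against 0 h, in %. Rows are the genes nearest to the 913 peaks, the same genes split by the distance of their closest peak, those with 2 or more peaks, the genes of other distal peaks, and all genes. At 48 h the red bar reaches 19% for the nearest genes and 4.07% for all genes.

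Lists of 423 genes in 12 groups, most of them with known roles in neurons or their progenitors, were read for peaks of this kind. Of 343 list genes nearest to a distal peak, 49 (14.3%) had at least 1 of the 913, beside 669 of 9429 genes overall (7.10%). Because some genes have more distal peaks than others, the share of their distal peaks is also given: 80 of 1795 (4.46%), beside 3.22% overall. The largest shares of distal peaks were in the neuronal migration list, with 21 of 179 (11.7%), the neuronal cytoskeleton list, with 9 of 90 (10.0%), and the cell cycle exit list, which also holds cyclin genes, with 6 of 60 (10.0%). By gene these lists had 9 of 34 (26.5%), 3 of 22 (13.6%) and 4 of 12 (33.3%). In the cytoskeleton list 5 of the 9 peaks lay near Marcks, and its share of genes was under the 14.3% of all lists together. The lowest were in the Notch list, with 1 of 73 (1.37%), the pluripotency list, with 4 of 255 (1.57%), and the adhesion and epithelial-mesenchymal transition list, with 3 of 154 (1.95%).

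Proneural genes and their partners had 3 of the peaks, near Neurod4, Id4 and Olig1. Neurod4, a basic helix-loop-helix activator of neuronal differentiation, had an intergenic peak 13848 bp from its start with 103 and 75.4 at 0 h, then 238 and 259 at 12 h, then 261 and 333 at 48 h. Its promoter peak had 30.8 and 18, then 47.2 and 55.2, then 149.9 and 187. The promoter rose by 1.06 ± 0.32 at 12 h and 2.78 ± 0.29 at 48 h (log2, SE, edgeR adjusted p = 0.0246 and 3.78e-07). The 12 h call was lost with the G+C correction and without 0 h R2 or either 12 h library.

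Id4, a dominant-negative partner of basic helix-loop-helix factors, had a peak 101292 bp away with 204 and 151 at 0 h, then 522 and 531 at 12 h, then 454 and 580.4 at 48 h. Its promoter peak rose at 48 h (log2 change 0.93 ± 0.31 SE, edgeR adjusted p = 0.0429), a call lost with DESeq2, with only the 4 libraries compared, and without either 0 h library, either 12 h library or 48 h R1. Olig1 had a peak that was wholly repeat sequence, with 13.3 and 14.9 at 0 h and 22.2 to 33.1 later. The signal at the Olig1 peak was low in every library.

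Among neuronal transcription factors, 7 of 264 distal peaks (2.65%) belonged to the set, near Insm1, Sox4, Zeb2, Cbfa2t2 and Casz1. Insm1, a zinc-finger factor of neural and endocrine progenitors, had 2 peaks, and the higher, in an intron of Ralgapa2, had 29.8 and 12.7 at 0 h, then 70.8 and 87.4 at 12 h, then 63.3 and 81.7 at 48 h. The Insm1 promoter went from 71.8 and 61.6 to 177 and 144 and then 362 and 269, by 1.26 ± 0.24 at 12 h and 2.24 ± 0.23 at 48 h (log2, SE, edgeR adjusted p = 0.000703 and 3.17e-07). The 12 h call was lost without 0 h R2.

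The Sox4 promoter had 796 and 577, then 675 and 575, then 1195 and 888, and that of Zeb2 had 415 and 321, then 398 and 386, then 774 and 569. Both were called gained at 48 h (edgeR adjusted p = 0.0245 and 0.00203). The call for Sox4 was lost without 0 h R2 or either 12 h library and with only the 4 libraries compared, and that for Zeb2 without 0 h R2. Cbfa2t2, which encodes a corepressor, went the other way in time, with promoter counts of 3444 and 3477, then 5504 and 5621, then 2888 and 3598. It rose by 0.68 ± 0.13 at 12 h (log2, SE, edgeR adjusted p = 0.000718, lost without 0 h R2) and was at -0.09 ± 0.13 at 48 h. Its intronic peak, 55.7% repeat sequence, had 14.4 and 14.9, then 28.9 and 36.8, then 24.4 and 29.2.

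The neuronal migration list had peaks near 9 of its 34 genes, among them Cdk5r2, Rnd3, Cdh2, Astn2, Tspan5, Plxna2, Trio and Nrg1. A peak in an intron of Astn2, which encodes a neuron to glia adhesion protein, had 61.6 and 56.3, then 191 and 219.9, then 231 and 253. A peak in an intron of Trio, a guanine nucleotide exchange factor gene, had 70.8 and 56.3, then 233 and 227, then 219.8 and 268. At both peaks the 4 later libraries were over 3 times the higher 0 h library.

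Of the promoter peaks of these 9 genes, 5 were called gained at 48 h: Rnd3, Cdh2, Astn2, Tspan5 and Plxna2. In the whole list 7 of 33 promoter peaks were, these 5 among them, and over all genes 4.07% were. Tspan5, a tetraspanin gene with 3 of the peaks, also gained by 12 h, from 157 and 75.4 to 394 and 361, and was at 494 and 516 at 48 h. Its log2 changes were 1.69 ± 0.23 and 2.12 ± 0.23 (SE, edgeR adjusted p = 1.93e-05 and 7.61e-07), and both calls stood in all 13 alternative fits. The Cdh2 promoter, of the N-cadherin gene, had 122 and 124 at 0 h, then 87.9 and 110.4 at 12 h, then 449 and 184 at 48 h, with the 48 h libraries far apart (log2 change 1.35 ± 0.28 SE, edgeR adjusted p = 0.00181, lost without either 0 h library and with DESeq2). The calls for Rnd3 and Plxna2 were each lost in 7 of 13 alternative fits and that for Astn2, whose promoter held under 30 scaled counts in every library, in 4.

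Axon guidance genes with such peaks were Robo1, Sema3e, Sema6d, Epha4 and Nrcam, 5 of 40. Sema6d, a transmembrane semaphorin gene, had an intronic peak with 49.3 and 23.4 at 0 h, then 198 and 188 at 12 h, then 165 and 218 at 48 h. Robo1, the Slit receptor gene, had 4 peaks, and the highest, 773075 bp away, had 24.6 and 8.49, then 66.5 and 77.3, then 40.0 and 81.7, with the 48 h libraries apart. Sema3e, whose window is printed above, had 285 and 155, then 563 and 685, then 395 and 608. Among the 5, only the promoter of Nrcam, an adhesion molecule gene, passed the test against 0 h, with 36.9 and 29.7 at 0 h, then 47.2 and 52.4 at 12 h, then 141 and 69.6 at 48 h (edgeR adjusted p = 0.000914 at 48 h, lost without 0 h R2).

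For the cytoskeleton, Map1b, a microtubule-associated protein gene, had 3 peaks. The highest, 93747 bp away, had 259.6 and 225 at 0 h, then 998 and 983 at 12 h, then 832 and 1006 at 48 h, 4.09-fold and 3.79-fold over 0 h. Marcks, which encodes an actin-binding substrate of protein kinase C, had 5, between 36818 and 367640 bp away. The closest had 17.4 and 14.9 at 0 h, then 146 and 125 at 12 h, then 112 and 158 at 48 h. The promoters of both passed the test at 48 h and not at 12 h: that of Marcks had 644 and 556, then 634 and 588, then 1693 and 1142, and that of Map1b 497 and 453, then 487 and 408, then 865 and 660.4 (log2 changes at 48 h of 1.24 ± 0.17 and 0.68 ± 0.17 SE, edgeR adjusted p = 2.15e-05 and 0.00895). The Map1b call was lost without either 0 h library. A weak peak near Tuba1a, an alpha-tubulin gene, had 12.3 and 11.7 at 0 h and 20 to 36.1 later.

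Of 39 synaptic genes 5 had such peaks, among them Rims1, Rims2, Grin2a and Lrrtm2. An intronic peak of Rims1, an active zone gene, had 10.3 and 9.55 at 0 h, then 31.1 and 35.9 at 12 h, then 40 and 31.8 at 48 h, and a peak near Grin2a, an NMDA receptor subunit gene, had 30.8 and 32.9, then 72.9 and 79.1, then 60 and 96.3. The promoter of Rims2, a relative of Rims1, was called lost at 12 h, with 389 and 415, then 236 and 223, then 533 and 291 (edgeR adjusted p = 0.0131), a call lost with the G+C correction and without any of the 0 h or 12 h libraries.

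**Figure D5:**
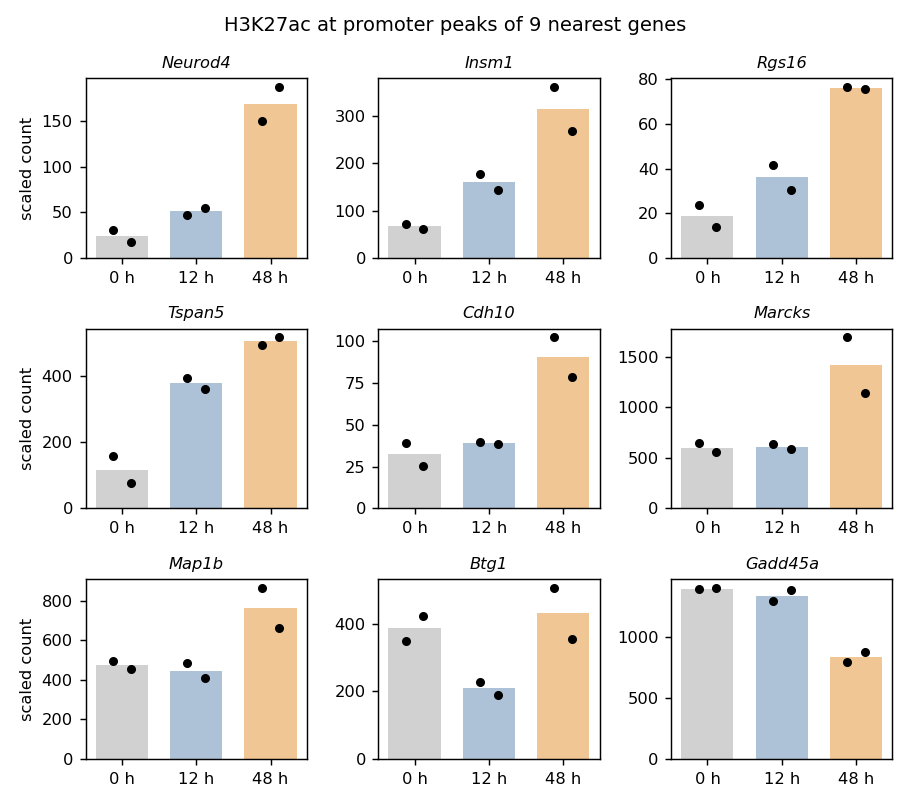
Scaled H3K27ac counts at the promoter peaks of 9 genes nearest to the distal peaks, at 0 h, 12 h and 48 h. Bars are means and points are the R1 (left) and R2 (right) libraries, on linear axes from 0 that differ between panels. Neurod4, Insm1 and Tspan5 are higher at both later times, Rgs16, Cdh10, Marcks and Map1b are called gained at 48 h alone, and Btg1 dips at 12 h while Gadd45a falls to 794 and 877 at 48 h.

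RNA-binding and splicing genes with such peaks were Elavl2, Celf2, Celf4, Rbfox2 and Nova2, 5 of 17, though at 6 of 144 (4.17%) their share of distal peaks was near the overall 3.22%. A peak 1103194 bp from Celf2 had 195 and 91.3 at 0 h, then 564 and 619 at 12 h, then 409.7 and 681 at 48 h. A peak 5035 bp from Nova2, a neuronal splicing factor gene, had 13.3 and 8.49, then 36.5 and 35.9, then 41.1 and 43.0. The promoter peaks found for these genes, those of Elavl2, Rbfox2 and Nova2, had edgeR adjusted p of 0.0707 or more at both times.

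The list named for cell cycle exit also holds cyclin genes, and its genes with such peaks were Btg1, Btg2, Gadd45a and the cyclin gene Ccnd2, 4 of 12. Btg2, an antiproliferative gene of neurogenic progenitors, had 3, the highest with 668 and 519 at 0 h, then 1040.0 and 1071 at 12 h, then 1346 and 1163 at 48 h, and its promoter rose from 472 and 426 to 835 and 722 at 48 h (edgeR adjusted p = 0.00147, lost without 0 h R2). Btg1, its relative, had a peak with 14.4 and 12.7, then 65.4 and 37.7, then 54.4 and 53.3, and its promoter fell at 12 h to 227 and 190.4 from 349.9 and 425 (edgeR adjusted p = 0.00356, lost without 0 h R2 or 12 h R2). Gadd45a, a stress and growth arrest gene, had a peak that went from 12.3 and 11.7 to 28.9 and 35.3 at 48 h, while its promoter went from 1388 and 1400.0 to 794 and 877. That promoter fell by 0.74 on the log2 scale (± 0.14 SE, edgeR adjusted p = 0.000948, lost without 0 h R2).

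Gadd45a was thus among the 5 nearest genes whose promoter was called lost at 48 h. The others, singled out after their values were seen, were Adgre5, Cyb5r2, Kctd3 and Slc25a36. Adgre5, an adhesion receptor gene, had 736 and 911 at 0 h, then 1155 and 1074 at 12 h, then 397 and 506 at 48 h. Leaving out either 48 h library raised the number called lost, and the share lost stayed under that of all genes.

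The pluripotency list had 4 peaks, 2 near Gbx2 and 1 each near Sall4 and Myc. The higher peak near Gbx2, a homeobox gene, had 280.2 and 252 at 0 h, then 623 and 557 at 12 h, then 648 and 606 at 48 h, and the Gbx2 promoter was called gained at 48 h, from 475 and 503 to 1247 and 776 (log2 change 1.05 ± 0.19 SE, edgeR adjusted p = 0.00042). The promoters of Sall4 and Myc did not pass the test at either time, with log2 changes at 48 h of -0.20 and -0.02. In the adhesion list, Cdh10 had one of the largest gains of all, from 6.16 and 4.25 to 81.5 and 65.3 at 12 h and 48.9 and 99.7 at 48 h, and its promoter, 295330 bp away, had 39.0 and 25.5, then 39.7 and 38.6, then 102 and 78.2 (edgeR adjusted p = 0.00114 at 48 h, lost without 0 h R2). Cdh3, the P-cadherin gene, had a peak only 2737 bp from its start and a promoter called gained at both times, with log2 changes of 0.79 ± 0.16 and 0.71 ± 0.16 (SE, edgeR adjusted p = 0.00157 and 0.00379), the first lost without 0 h R2 or 12 h R1 and the second without either 0 h library.

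Of the signalling list, Fgfr2 had a peak with 12.3 and 14.9 at 0 h, then 72.9 and 74.5 at 12 h, then 38.9 and 87.7 at 48 h, and Bmpr1a and Ptch1 had peaks with folds between 1.53 and 1.92. The promoters of Bmpr1a and Ptch1 did not pass the test at either time. From the Notch list only Rfng, whose product adds sugars to Notch receptors, had a peak, with 129 and 104, then 248 and 263, then 251 and 309. The promoter of Rfng had log2 changes of -0.22 and 0.20, neither past the test.

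The genes with the most peaks were Map4k3 and Sgk1 with 6 each and Dok5, Fmnl2 and Marcks with 5 each. Map4k3, a kinase gene, had 17 distal peaks in all, and its highest, in an intron, had 197 and 143 at 0 h, then 850.3 and 867 at 12 h, then 838 and 1077 at 48 h. The peaks near Sgk1, a growth factor responsive kinase gene, were weak, the highest with 34.9 and 25.5, then 105 and 104, then 97.7 and 143. For Dok5, a docking protein gene, 3 intronic peaks stood between 39372 and 43979 bp from the start and 2 over 500 kb away, with folds between 1.74 and 2.71. Of these 5 genes the promoters of Fmnl2 and Marcks were called gained at 48 h, that of Fmnl2, an actin-nucleating formin gene, from 177 and 159 to 429 and 268 (edgeR adjusted p = 0.00161, lost without 0 h R2).

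Among the genes of the highest peaks and of the largest gains, the promoters of F2rl1, Plekha1, Fmnl2, Bcar3, Cdh10 and Rgs16 were called gained at 48 h. Over the promoter peaks of all genes 4.07% were, and no share is read from these named genes. The calls for F2rl1 and Bcar3 were lost without 0 h R2 and that for Plekha1 without either 0 h library. The Rgs16 promoter had 23.6 and 13.8 at 0 h, then 41.8 and 30.4 at 12 h, then 76.6 and 75.7 at 48 h (log2 change 2.01 ± 0.32 SE, edgeR adjusted p = 0.000118), and this call stood in all 13 alternative fits. The Aco1 promoter was called lost at 12 h, with 297 and 237, then 169 and 170.2, then 299 and 302 (edgeR adjusted p = 0.0237), and lost that call in 7 of 13 alternative fits. No call named for a promoter by the naming rule changed direction in the 13 alternative fits, which were read only for the times at which a promoter was called.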

How the data were processed

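H3K27ac ChIP-seq was analysed in 6 libraries. According to the study's methods, reads were aligned to mm10 with Bowtie2, sorted with SAMtools 0.1.19, called with MACS2 against input and counted with QuasR over peaks merged from all samples. The deposited values are raw read counts per merged peak, and the authors applied no normalisation to them. Here counts were divided by library totals and multiplied by the mean total. Peaks were annotated with GENCODE M21 and the RefSeq copy of mm10, and 58 peaks on unplaced scaffolds were not considered. Counts were fitted with edgeR 4.0.16 (quasi-likelihood, library totals, 1 model over 3 time points, residual df 3) over all 66841 peaks with Benjamini-Hochberg adjustment at 0.05, and the fits were tested on simulated data. A gene's promoter peak was its highest within 2 kb of a TSS. Alternatives were DESeq2 1.42.0, TMM, a filter of 10 counts in 2 libraries, an offset for G+C content (lowess, span 0.3), replicate blocks and omitted libraries. Named peaks were the 10 highest, the 10 with the largest gain, the highest near each gene of 12 lists, those at the limit of the rule and those of the 5 genes with most peaks. The rule, the lists and the named genes were chosen with earlier results of these data known. Sites on chromosome 18 are given no sequence. A few further genes and sequences are not reported here.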

Additional observations from a re-analysis of the deposited data

Results flagged for a closer look

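The effect of induction on the promoter peaks of nearest genes differed between the time points by a direct edgeR comparison of 48 h with 12 h: 203 of 537 were higher at 48 h and 11 were lower. Over the promoter peaks of all genes the shares were 34.5% and 2.38%, near the 37.8% and 2.05% of the nearest genes. The groups of 2 libraries were too small to look for single libraries that stand apart within a group.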

How the results depend on the processing

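The number of peaks meeting the rule was within 1.5 times 913 under TMM, DESeq2 size factors, G+C correction, other read minimums, folds of 1.2 and 1.5 and other TSS definitions. It was 1422 with a ratio window of 0.67 to 1.5 and 3268 on the R2 libraries alone, and leaving out a library gave 744 to 1912. Of the 913, those called gained ranged from 304 to 867 at 12 h and from 298 to 818 at 48 h when a library was left out, the lowest without 0 h R2, and without 0 h R1 the number meeting the rule was 1570. The number called changed between 12 h and 48 h was 67 with the G+C offset, 73 with the replicate block and the G+C offset, and 0 to 85 with a library left out.

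Nearest-gene promoters gained at 12 h numbered 59 with the G+C offset, 62 with the block and offset, 65 in the fit of 4 libraries, and 9 to 66 with a library left out. Those lost at 12 h numbered 33 with TMM, 19 with DESeq2, 32 with the offset, 32 with the block and offset, 177 in the fit of 4 libraries, and 2 to 178 with a library left out. Those gained at 48 h numbered 186 with the offset, 191 with the block and offset, and 28 to 237 with a library left out. Those lost at 48 h numbered 3 with TMM, 2 with DESeq2 and 2 in the fit of 4 libraries. These were 0.559%, 0.372% and 0.372%, beside 1.93%, 1.13% and 1.59% of all genes. With a library left out the number varied, and the share stayed under that of all genes. The cause was not tested. In each of these fits the shares gained at 12 h and at 48 h were higher in the nearest genes than in all genes, with no test of the difference. The share lost at 12 h was 6.15% with TMM, 3.54% with DESeq2 and 5.96% with the offset, beside 13.8%, 7.97% and 12.6% of all genes, in the fit of 4 libraries it was 33.0% beside 51.0%, and without 0 h R2 0.372% beside 0.373%.

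The share chosen in R1 and held in R2 was 33.3% with the replicates exchanged, 79.8% at fold 1.5 and 66.2% with G+C correction, beside 11.7%, 17.5% and 17.9% of distal peaks. The CAGATG share was 20.8% within 100 bp, 73.6% over whole peaks, 49.0% at a mean of 40 reads and 40.4% to 46.7% with a library left out. Over distal peaks it was 13.4% within 100 bp and 54.8% over whole peaks. The CAGCTG share was 13.3% within 100 bp and 58.5% over whole peaks, beside 11.1% and 46.6% of distal peaks. With a library left out it was 24.8% to 31.3%. The lowest, without 48 h R1, was no higher than the 24.9% of all distal peaks within 250 bp.

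The replicate numbers did not pair the libraries: R1 minus R2 correlated between time points at -0.04, -0.04 and 0.11 over distal peaks. With the replicate block alone 776 and 778 of the 913 were called gained at 12 h and 48 h, with 36 and 101 promoters gained and 58 and 6 lost. The 99 peaks called at neither time had a median of 30.0 reads, and the part of depth in this was not tested. Among named promoter calls the fits without 0 h R2 ended most.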
